A study of Mus musculus with 8 samples.

Results

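The 10 genes described here encode proteins of the zymogen granule and of its release in mouse pancreas: Gp2, Zg16 and Sycn (granule proteins), Rab3d, Rab26 and Rab27b (small GTPases), Vamp2, Vamp8 and Stx3 (SNARE fusion proteins) and Rap1gap (a regulator of the GTPase RAP1). They were chosen by gene symbol, all 10 were found among the 22180 genes tested, and no filter on low values removed any. The study compared pancreas of Lmna knockout mice (KO, 4 arrays) with control pancreas (WT, 4 arrays), in the C57 BL6 strain and 6 days after tamoxifen. Both genotypes received tamoxifen intraperitoneally at 3 mg per 40 g of body weight, and each held 3 males and 1 female. Lmna encodes lamin A/C, a filament protein of the nuclear envelope, and the series title places its loss in acinar cells. The recombinase, the promoter that drives it, the allele and the ages are unstated (not given in the sources used here). The female of each genotype is a separate animal from the males, but nothing states that the 3 males are separate animals. The p-values thus cover the spread among these samples, which may be partly technical.

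Acinar cells of the exocrine pancreas store digestive enzymes in zymogen granules under the apical membrane. On a secretagogue signal, RAB GTPases and their partners tether the granules, SNARE proteins on granule and plasma membrane pair up to fuse them, and the content is released into the duct lumen. RAP1, switched on by the cyclic AMP sensor EPAC and switched off by GTPase-activating proteins such as RAP1GAP, is found on zymogen granules and takes part in amylase release. MIST1, encoded by Bhlha15, is a transcription factor that mature secretory cells need for their granules, and Rab26 and Rab3d have been reported as its targets in zymogenic cells of the stomach.

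Of the 10 genes, 4 were lower in KO pancreas and 0 higher (limma with Benjamini-Hochberg adjustment over all genes, adjusted p under 0.05). Over all genes 6.99% were lower and 14.6% higher. Rap1gap fell to 29.1% of its WT level, Rab26 to 46.6%, Rab3d to 54.6% and Zg16 to 69.1%. The 6 others, among them the granule membrane protein Gp2 and each of the SNARE genes, did not pass. At an unadjusted p under 0.05 the higher genes numbered 2, Rab27b and Stx3. In all 4 lower genes the 4 KO arrays lay below the 4 WT arrays, and in the 6 others the groups overlapped. Over all genes the groups did not overlap in 27.4%, with KO lower in 12.1%.

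**Figure D1:**
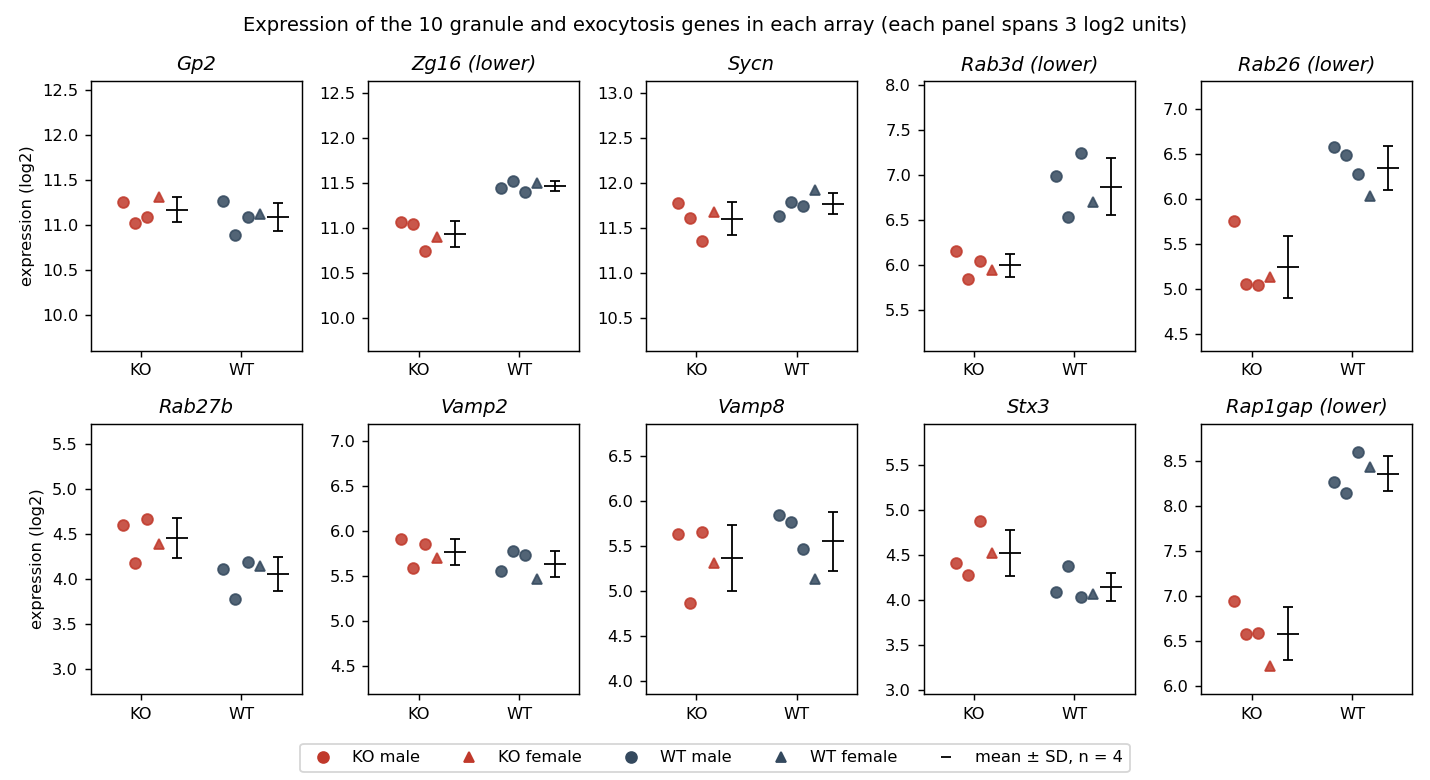
Expression of each gene (log2, vertical axis) in the 4 KO and 4 WT arrays, circles for males and triangles for females, with the mean ± SD (n = 4) beside each group; every panel spans the same range. In Zg16, Rab3d, Rab26 and Rap1gap all KO points lie below all WT points, with Rap1gap at 6.22 to 6.95 in KO and 8.15 to 8.60 in WT.

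Values are log2 expression, in which 1 unit is a doubling, and differences are KO minus WT with their standard error. Total RNA of whole pancreas was measured, so fewer cells of a type and less RNA per cell cannot be told apart. The deleted gene, Lmna, read 2.33 to 2.73 in KO and 2.54 to 3.13 in WT (difference -0.24 ± 0.15, limma adjusted p = 0.264). This row is dim and its probes are not placed relative to the deleted part in the sources used here, so it does not check the genotype labels. The interquartile range of the 22180 genes was 2.88 to 3.03 log2 units in the KO arrays and 2.11 to 2.48 in the WT arrays. Of the 4792 genes that passed, 67.6% were higher in KO. Other settings gave other splits: 51.8% higher with a second quantile normalization, 56.4% with cyclic loess, 82.1% with median centring and 84.2% in males only. KO 2 and KO 4 stood apart in some markers of other cells. The neutrophil gene Retnlg read 5.39 and 5.37 there, against 2.04 to 2.90 in WT, with 2.47 and 2.08 in KO 1 and KO 3. S100a8, S100a9 and Cxcr2 also lay above all WT arrays in both, while the neutrophil markers Ly6g, Mpo and Elane did not. The mast cell gene Cpa3 read 4.64 and 4.53 in KO 2 and KO 4, against 1.87 to 2.86 in WT, with 2.13 and 1.96 in KO 1 and KO 3. No other mast cell marker lay above all WT arrays in both KO 2 and KO 4. KO 2 alone was high in the adipocyte genes Cidec (6.02, against 2.18 to 2.97 in WT) and Fabp4 (9.12, against 6.44 to 7.37 in WT). With both arrays left out, which leaves 2 KO males, 1 of the 10 genes was still lower, Rap1gap. Rab26, Rab3d and Zg16 kept their direction at an adjusted p of 0.0645 to 0.0875, and 1009 genes passed over the table, 898 higher and 111 lower. No pair of arrays shared more than 21 equal values, so none is a copy of another. The acinar markers that fit the tissue label had a mean level of 10.88 to 11.07 in KO and 11.50 to 11.58 in WT, near the array maximum of 12.35 to 12.47.

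Among the 3 granule proteins Zg16 fell, and the differences of Gp2 and Sycn did not pass the test. Whether the 3 differ from each other was not tested. Zg16 is a lectin that sits on the inner face of the granule membrane. It read 11.06, 11.04, 10.74 and 10.89 in the KO arrays, against 11.44, 11.53, 11.40 and 11.50 in the WT arrays. The highest KO array lay below the lowest WT array, and the WT arrays were tightly grouped. The difference was -0.53 ± 0.11 (95% interval -0.79 to -0.28, limma adjusted p = 0.0127). Its call rested on the setting: males alone gave -0.51 (adjusted p = 0.0926), and a second quantile normalization -0.37 (adjusted p = 0.0615, or 0.0951 with the replicate block added). Without KO 2 and KO 4 it was -0.57 (adjusted p = 0.0875). Over the 21 alternatives the adjusted p was 0.0087 to 0.0951 and passed in 17.

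Gp2 encodes a glycolipid-anchored glycoprotein that is the most abundant protein of the granule membrane. It read 11.26, 11.02, 11.09 and 11.31 in KO, against 11.27, 10.89, 11.09 and 11.12 in WT. The groups covered nearly the same range, and no fall as large as that of Zg16 lay within the interval of the difference (0.08 ± 0.13, 95% interval -0.20 to 0.36, limma adjusted p = 0.654). Sycn, syncollin, is a small protein bound to the inner side of the granule membrane. Its values were 11.78, 11.60, 11.35 and 11.67 in KO and 11.63, 11.78, 11.74 and 11.92 in WT, overlapping in KO 1 and KO 4. The difference was -0.17 ± 0.13 (95% interval -0.45 to 0.12, limma adjusted p = 0.346). All 3 genes lay close to the top of the array scale; whether they were saturated is unknown (not given in the sources used here).

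The RAB GTPases split between falls of both Rab26 and Rab3d and a Rab27b value on the other side of 0. Rab26 is a small GTPase of secretory granules, described in acinar cells of rat pancreas and parotid. It read 5.76, 5.05, 5.05 and 5.13 in KO, against 6.58, 6.50, 6.28 and 6.04 in WT. KO 1 stood above the other 3 KO arrays and still below every WT array. The difference was -1.10 ± 0.19 (95% interval -1.53 to -0.68, limma adjusted p = 0.00563). It passed in 20 of 21 alternatives, with values from -1.51 to -0.95. The exception was without KO 2 and KO 4 (-0.95, adjusted p = 0.0645), and over the alternatives the adjusted p was 0.00292 to 0.0645.

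Rab3d, the RAB3 form found on the cytosolic face of zymogen granules, read 6.15, 5.85, 6.05 and 5.95 in KO. The WT arrays read 6.996, 6.54, 7.25 and 6.71. The KO arrays were tightly grouped and the WT arrays more spread, with no overlap. The difference was -0.87 ± 0.16 (95% interval -1.24 to -0.51, limma adjusted p = 0.0078). Among males alone it was -0.91 with an adjusted p of 0.0546, and without KO 2 and KO 4 -0.77 with 0.0839. Over the 21 alternatives the adjusted p was 0.00124 to 0.0839. The deposited table holds a second row for Rab3d, left out of the gene test because it is dimmer. That row read 2.51, 2.42, 2.30 and 2.35 in KO and 3.03, 2.82, 3.31 and 3.21 in WT, again with no overlap (-0.70 ± 0.13, adjusted p = 0.0164 in a limma fit of all rows).

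Rab27b, a granule GTPase that takes part in amylase release, did not pass. It read 4.60, 4.18, 4.67 and 4.39 in KO, against 4.11, 3.78, 4.19 and 4.15 in WT. KO 2 lay just below WT 3, and KO 1, 3 and 4 lay above the whole WT range. The difference of 0.40 ± 0.15 (95% interval 0.07 to 0.74, limma adjusted p = 0.0796) was close to the median of 0.45 over all genes of mean level 4 to 5. After a second quantile normalization it was 0.05.

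None of the 3 SNARE genes passed the test. Vamp8, the vesicle SNARE that carries most regulated enzyme release in mouse pancreas, read 5.64, 4.87, 5.66 and 5.31 in KO and 5.84, 5.77, 5.47 and 5.13 in WT. The groups overlapped widely, with the lowest value in KO 2. Its difference was -0.18 ± 0.21 (95% interval -0.66 to 0.30, limma adjusted p = 0.538), so a fall as large as that of Zg16 lies within the interval and one as large as that of Rab3d does not. Without KO 2 and KO 4 it was 0.097, so its direction is not settled.

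Vamp2, a second vesicle SNARE of the granule, read 5.91, 5.59, 5.86 and 5.70 in KO, against 5.56, 5.78, 5.74 and 5.47 in WT. Its difference of 0.13 ± 0.13 (adjusted p = 0.446) has no settled direction, since a second quantile normalization gave -0.30 and cyclic loess gave -0.27. Stx3, the target SNARE of the granule membrane, with a role in fusion between granules, read 4.41, 4.28, 4.88 and 4.52 in KO. In WT it read 4.09, 4.38, 4.03 and 4.07, so that WT 2 alone reached into the KO range. The difference of 0.38 ± 0.15 (95% interval 0.04 to 0.72, limma adjusted p = 0.0974) was 0.0029 after a second quantile normalization.

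Rap1gap had the largest fall of the 10 genes. It read 6.95, 6.58, 6.58 and 6.22 in KO, against 8.27, 8.15, 8.60 and 8.44 in WT. The gap between the highest KO and the lowest WT array was wider than the spread within either group. The difference was -1.78 ± 0.17 (95% interval -2.16 to -1.40, limma adjusted p = 0.000889). It held in 21 of 21 alternatives, with values from -2.12 to -1.60.

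**Figure D2:**
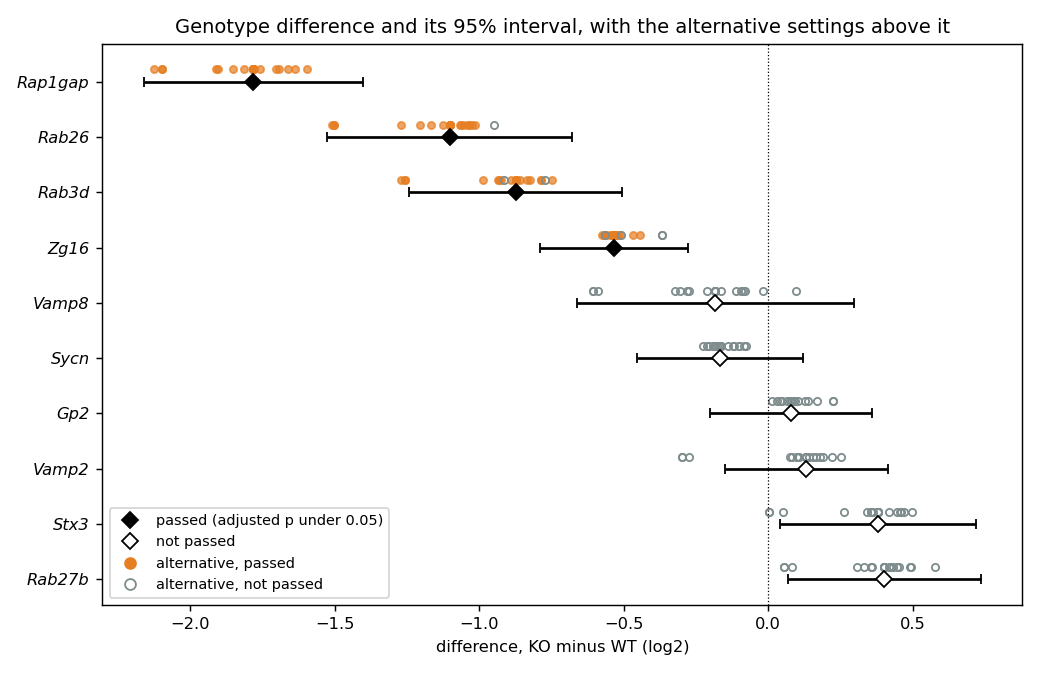
Differences in expression, KO minus WT (log2, horizontal axis), with 95% intervals from limma; diamonds are filled where the adjusted p is under 0.05, and circles above each diamond give the alternative settings. Rap1gap, Rab26, Rab3d and Zg16 lie below 0 under every setting drawn, while the 3 settings that requantile or loess the arrays place Vamp2 below 0.

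In the 4 lower genes any pairing of KO with WT arrays runs downward, because the groups did not overlap. Pairs of same-numbered arrays therefore add only the sizes. The pair differences were -1.32 to -2.21 for Rap1gap, -0.83 to -1.44 for Rab26, -0.69 to -1.20 for Rab3d and -0.38 to -0.66 for Zg16. With the replicate number as a block, no call among the 10 genes changed. The female pair, replicate 4, gave -2.21 for Rap1gap against -1.64 in males, and -0.90 for Rab26 against -1.17 in males. The difference between the sexes ran from -0.58 to 0.49 over the 10 genes and passed for none (limma adjusted p = 0.9999 each), and the single female of each genotype gives no spread of its own.

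Genes of middle level were more often higher in KO, so each gene was set beside others of like mean level. Among the 1288 genes at 6 to 8, the median difference was 0.39, with 5.43% lower and 33.1% higher in KO. There Rap1gap had a more negative difference than all but 3 genes (0.233%) and Rab3d than all but 22 (1.71%). Among the 1911 genes at 5 to 6, where the median was 0.50, 3.14% were lower and 39.7% higher, only 15 (0.785%) had a more negative difference than Rab26. Vamp8 had 204 (10.7%) and Vamp2 449 (23.5%) in that range. Among the 2797 genes at 4 to 5, with 3.36% lower and 36.6% higher, 1281 (45.8%) had a more negative difference than Rab27b and 1222 (43.7%) than Stx3, near the middle of that range. Of the 268 genes at 8 or more, 14.2% were lower and 22% higher, and 39 (14.6%) had a more negative difference than Zg16.

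**Figure D3:**
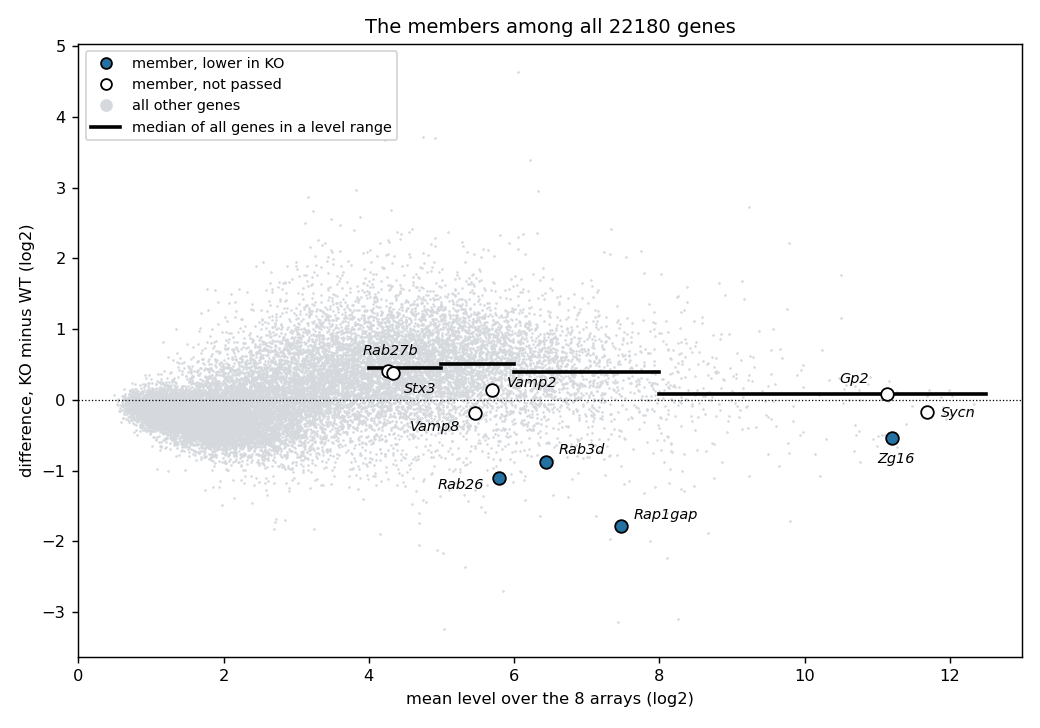
Difference, KO minus WT (log2, vertical axis), against the mean level over the 8 arrays (log2, horizontal axis) for all 22180 genes in grey and the 10 genes named, filled where lower in KO; black lines give the median of all genes in 4 level ranges. Rap1gap, Rab26 and Rab3d lie well under the medians of 0.39 to 0.50 at their levels, while Rab27b, Stx3 and Gp2 lie on or next to theirs.

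The genes whose profiles over the 8 arrays were closest to those of Rab26 and Rap1gap were found by the root mean square distance after centring each gene. For Rab26 they were Tsga10ip (0.09 log2 units), Pclo, which encodes the presynaptic scaffold piccolo (0.15), and Rab3c, another RAB3 form (0.18). These 3 were dimmer than Rab26, with means of 3.20, 2.45 and 2.97 in KO and 4.27, 3.47 and 4.06 in WT. Rab26 itself had means of 5.25 in KO and 6.35 in WT. The closest to Rap1gap were the pancreatic amylase Amy2b (0.24), Bhlha15 (0.25) and the TEAD transcription factor Tead2 (0.26). Since the profiles hold the genotype difference, all 6 were lower in KO too, by 1.01 to 1.89 in size. Bhlha15 read 5.65, 5.30, 5.49 and 5.31 in KO, against 6.86, 6.88, 6.85 and 6.84 in WT (-1.42 ± 0.12, limma adjusted p = 0.000571). The WT arrays were almost equal and each KO array was more than 1 unit below them. The short list of MIST1 and reported targets had 3 of 4 genes lower, against 6.99% of all genes. The 3 were Bhlha15 itself and the members Rab26 and Rab3d, all given above. The fourth, the Golgi calcium pump gene Atp2c2, was dim, at a mean of 1.94 in KO and 2.22 in WT. Its difference was -0.28 (limma adjusted p = 0.336).

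Because MIST1 and other basic helix-loop-helix factors bind the E-box CANNTG, the promoters of lower and of not-lower genes are shown, 250 bases up to the annotated start, 5′ to 3′ on the gene's strand, with every CANNTG in capitals (a palindromic pattern, so both strands are covered). Sequences are from RefSeq on GRCm38.p6, and windows were read for 6 of the 10 genes. The lower genes Rab26 and Zg16 had no entry, nor had Vamp2, and Rab27b was left out of this step. The first window is that of Rab3d at chr9:21918184-21918433 (minus strand). Rap1gap has 7 annotated starts, and the array does not tell them apart. Of these the first, at chr4:137664476-137664725, and one further in, at chr4:137681377-137681626 (both plus strand), are printed. For comparison, Gp2 is at chr7:119459273-119459522 (minus strand) and Sycn at chr7:28540635-28540884 (plus strand).
Rab3d: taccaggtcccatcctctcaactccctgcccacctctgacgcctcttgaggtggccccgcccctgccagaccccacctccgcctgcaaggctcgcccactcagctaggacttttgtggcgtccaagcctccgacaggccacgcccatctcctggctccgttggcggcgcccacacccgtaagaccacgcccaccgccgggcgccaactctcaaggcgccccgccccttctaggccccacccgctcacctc
Rap1gap first start: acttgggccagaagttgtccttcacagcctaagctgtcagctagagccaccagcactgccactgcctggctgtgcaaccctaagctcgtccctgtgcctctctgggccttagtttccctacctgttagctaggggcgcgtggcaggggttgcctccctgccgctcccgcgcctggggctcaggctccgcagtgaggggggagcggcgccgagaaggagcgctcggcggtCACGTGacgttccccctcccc
Rap1gap inner start: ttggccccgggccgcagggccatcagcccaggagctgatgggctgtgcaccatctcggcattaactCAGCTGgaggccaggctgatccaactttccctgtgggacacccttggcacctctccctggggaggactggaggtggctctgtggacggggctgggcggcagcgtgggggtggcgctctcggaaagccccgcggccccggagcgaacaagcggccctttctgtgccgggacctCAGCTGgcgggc
Gp2: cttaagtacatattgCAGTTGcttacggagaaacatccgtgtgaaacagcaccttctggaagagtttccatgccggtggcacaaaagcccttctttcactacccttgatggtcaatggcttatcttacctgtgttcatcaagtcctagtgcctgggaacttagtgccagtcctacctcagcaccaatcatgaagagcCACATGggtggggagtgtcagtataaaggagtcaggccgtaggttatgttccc
Sycn: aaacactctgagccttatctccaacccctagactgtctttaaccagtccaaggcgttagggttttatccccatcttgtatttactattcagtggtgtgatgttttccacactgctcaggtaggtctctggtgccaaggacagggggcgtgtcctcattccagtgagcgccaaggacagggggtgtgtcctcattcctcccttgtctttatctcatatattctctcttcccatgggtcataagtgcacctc

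The Rab3d window held no CANNTG, nor did that of Sycn, whose difference did not pass. The first Rap1gap window held 1, CACGTG, starting 21 bases before the start, and the inner one held CAGCTG at 184 and at 12 bases. All 7 Rap1gap windows held a CANNTG and 4 held CAGCTG. These windows are not independent, since several overlap and count the same match again. The 4 with CAGCTG begin at chr4:137681353 and 137681377, which overlap, and at 137707217 and 137707255, which also overlap. Gp2, with no called difference, held CAGTTG and CACATG at 235 and 53 bases. Over 32851 RefSeq windows of this length, 66.2% held CANNTG, 13% CAGCTG and 3.46% CATATG, which none of the printed windows held. A match is a description of the letters and not a bound site.

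The genes that work beside these 10 were taken in lists by role. Of 14 measured granule cargo and membrane genes besides the members, 3 (21.4%) were lower and 0 higher (2 higher at an unadjusted p under 0.05). Their median difference was -0.16. Over all genes 6.99% were lower, with a median of -0.06. Among genes of mean level 8 or more, where the list's mean level lies, 14.2% were lower and 22% higher, with a median of 0.08. Several genes of this list, Muc1 among them, are also in the ductal or acinar marker lists below. The 3 were the cell surface mucin Muc1 (-1.10 ± 0.18, limma adjusted p = 0.00456), the pancreatic granule glycoprotein gene Dmbt1 (-0.72, adjusted p = 0.00504) and the serine protease inhibitor Serpini2 (-3.10, adjusted p = 0.0168). Serpini2 varied widely, at 7.84, 7.92, 6.26 and 4.80 in KO and 10.95, 9.998, 8.35 and 9.94 in WT.

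Across the Rab family 18 of 58 genes were higher and 5 lower (31% and 8.62%), with a median of 0.39. Over all genes 14.6% were higher and 6.99% lower with a median of -0.06, and among all genes of mean level 4 to 5, where the family's mean level lies, 36.6% and 3.36% with a median of 0.45. A second quantile normalization left 6 higher and 5 lower, and cyclic loess 10 and 5. The higher ones of smallest p were Rab39b (2.05), the Golgi GTPase gene Rab6a (1.06), Rab8b (1.93) and the endosomal Rab21 (0.97). Besides Rab26 and Rab3d, the lower ones were Rab3c (-1.08, adjusted p = 0.0127), Rab17 (-0.50, adjusted p = 0.0424) and Rab27a (-0.48, adjusted p = 0.0466). With the replicate block 3 were lower, as Rab17 (adjusted p = 0.0652) and Rab27a (0.072) no longer passed. Over all alternatives that tested them Rab17 passed in 4 of 20 and Rab27a in 7 of 21.

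Of 30 effectors and regulators of RAB3 and RAB27, 6 (20%) were higher and 4 (13.3%) lower (median 0.06), against 14.6% and 6.99% over all genes. The GDP dissociation inhibitor gene Gdi2 (1.10), the myosin gene Myo5a (1.74), the RAB3 exchange factor gene Madd (0.78) and the RAB3 GTPase-activating subunit gene Rab3gap1 (1.35) were higher. Lower were Rims4 (-0.89), the RAB27 effector and myosin linker gene Myrip (-0.81), the epithelial myosin gene Myo5c (-0.53) and Rims3 (-0.46). Rims4 and Rims3 were dim, at up to 3.52 and 3.06. This list's mean level, 3.75 to 3.84 in KO and 3.50 to 3.75 in WT, was below 4, where no share of like genes was read. Rims3 passed in 7 of 20 alternatives, and was lost with the replicate block (adjusted p = 0.0603), under both rescalings, with median centring and without any one KO array. Myo5c passed in 15 of 21.

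Of 32 other SNARE genes 14 (43.8%) were higher and 0 lower (1 lower at an unadjusted p under 0.05), with a median of 0.51. Over all genes 14.6% were higher and 6.99% lower. Among all genes of mean level 4 to 5, where the list's mean level lies, 36.6% were higher and 3.36% lower, with a median of 0.45. A second quantile normalization split the 32 genes 4 higher and 2 lower, and cyclic loess 5 and 2. Those of smallest p were the plasma membrane syntaxin Stx4a (1.05), the Golgi SNARE Gosr1 (1.17) and the endosomal syntaxins Stx7 (1.05) and Stx12 (0.88). Snap23, the SNARE partner of syntaxins at the plasma membrane of acinar cells, was also higher (0.75, adjusted p = 0.0111) and was picked for its role after its value was seen.

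Among 39 SNARE regulators 5 (12.8%) were higher and 4 (10.3%) lower (median -0.21), against 14.6% and 6.99% over all genes. The list's mean level, 2.99 to 3.16 in KO and 3.10 to 3.15 in WT, was below 4, where no share of like genes was read. The higher ones of smallest p were Vps45 (0.66), Stxbp3, a MUNC18 form that binds syntaxins (1.55), and the SNARE-recycling genes Nsf (0.78) and Napb (0.82). The lower ones were the fusion clamp genes Cplx1 (-0.86) and Cplx2 (-0.60) and the synaptotagmin genes Syt8 (-0.65) and Syt4 (-0.44). These 4 were dim, with a highest value in any array of 3.60 (Cplx2 in WT 4), as were Vps45 and Napb among the higher ones, at up to 3.38 and 3.40. Several of these calls rested on the setting. Syt4 passed in 7 of 20 alternatives, Cplx2 in 9 of 20, Napb in 12 of 20 and Syt8 in 15 of 20. Both rescalings ended the call of Syt4 and that of Nsf, whose difference was then 0.36 and 0.38. Stxbp2, the MUNC18 form that pairs with Stx3, had a difference of 0.04 (adjusted p = 0.866), also picked for its role.

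Of the 9 exocyst subunits, which tether vesicles to the plasma membrane, 5 (55.6%) were higher and 0 lower (median 0.95). At an unadjusted p under 0.05 they numbered 8 and 0. Over all genes 14.6% were higher. At mean levels of 4 to 5 and 5 to 6, where these subunits mostly lie, 36.6% and 39.7% of all genes were higher. Both rescalings left 4 subunits higher and 0 lower. They were led by Exoc2 (1.28), Exoc4 (1.23), Exoc1 (0.95) and Exoc6b (1.28). In the 19 genes of the RAP1 switch besides Rap1gap, 7 (36.8%) were higher and 2 (10.5%) lower (median 0.37). Among all genes of mean level 4 to 5, where the list's mean level lies, 36.6% were higher and 3.36% lower (median 0.45). The share of higher RAP1 switch genes was thus near that of genes of like level. The list's split turned to 2 higher and 3 lower under both rescalings, the second quantile normalization and cyclic loess. Higher were the RAP GTPase-activating gene Sipa1l1 (1.15), the RAP1 partner gene Krit1 (1.10), Rap2c (0.89) and Rap1b, a form of RAP1 itself (0.87). Under the 2 rescalings Rap2c (0.49 and 0.50) and Rap1b (0.60 and 0.53) did not pass. Lower were the paralog Rap1gap2 (-0.60, adjusted p = 0.0152) and Rapgef3, which encodes EPAC1 (-0.60, adjusted p = 0.0248). Rap1gap2 passed in 18 of 21 alternatives. Rapgef3 was dim, at 2.67 to 3.69 over the arrays, and passed in 14 of 20. Its call was lost among males only and without KO 2, KO 4, WT 2 or WT 4.

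**Figure D4:**
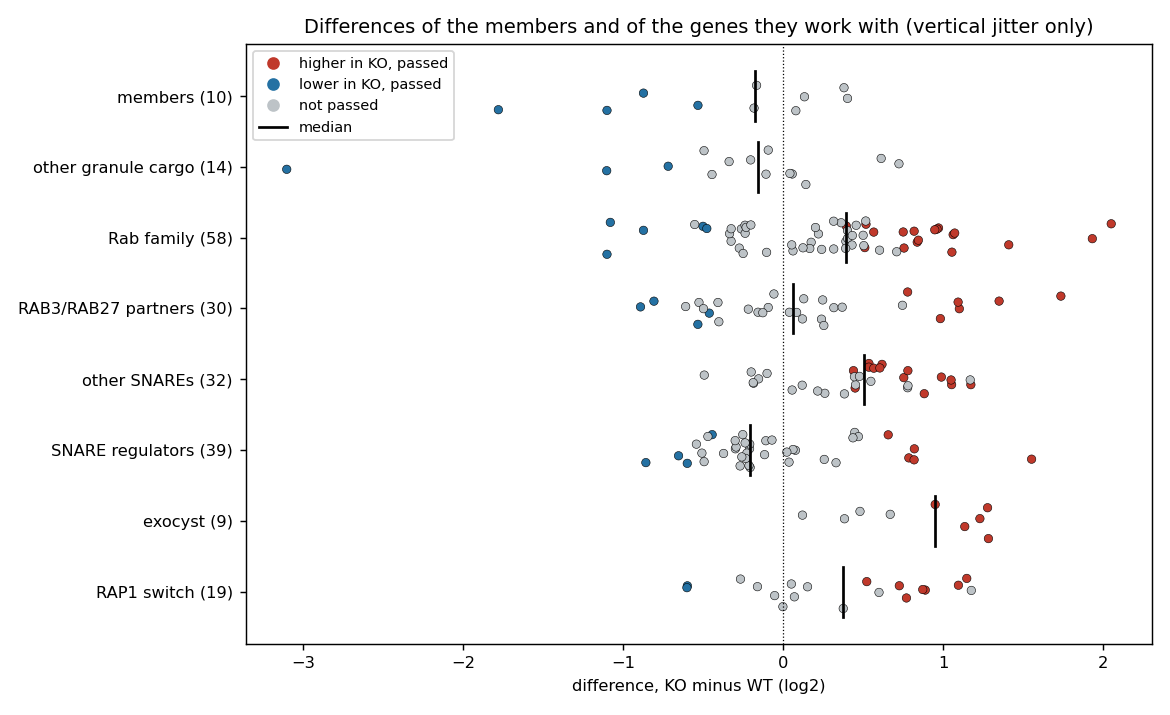
Differences, KO minus WT (log2, horizontal axis), of the genes in each list, with the number measured in brackets, the list's median as a black line, and colours for genes that passed. Left of 0 lie 6 of the 10 genes and 9 of the 14 other granule cargo genes, beside 12252 of all 22180 genes (not drawn). The 9 exocyst subunits, at 0.12 to 1.28, all lie right of 0.

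Markers of cell types in pancreas were read beside these results. Over all genes 6.99% were lower and 14.6% higher, and of those at a mean level of 8 or more 14.2% and 22%. At mean levels of 4 to 5, 5 to 6 and 6 to 8, 36.6%, 39.7% and 33.1% of all genes were higher. The lower ones there were 3.36%, 3.14% and 5.43%. The macrophage list spans these ranges, with 50% higher, and the ductal list lies at 4 to 5, with 28.6% higher. Of 13 acinar markers 4 were lower and 0 higher (the same counts at an unadjusted p under 0.05), with a median of -0.20, led by Amy2b (-1.89) and chymotrypsin C, Ctrc (-2.24). Of 10 macrophage markers 5 were higher and 0 lower (median 1.42), among them Fcgr1 (1.92) and Adgre1 (2.29), and the list's mean level was 5.21 to 6.60 in KO and 3.79 to 5.37 in WT. Ductal markers had 2 of 7 higher, Krt19 (1.13) and Epcam (1.13), and 1 lower, Muc1, at a mean level of 4.44 to 4.71 in KO and 4.29 to 4.61 in WT. Islet markers had 2 of 12 lower, the dim Neurod1 (-0.73) and Mafa (-0.77, passing in 7 of 20 alternatives), while 8 of the 12 had a positive difference that did not pass, hormone genes such as Gcg (0.21) and Sst (0.14) among them. The list's median was 0.12 and its mean level 3.54 to 4.71 in KO and 3.53 to 4.55 in WT.

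Of 9 stellate cell and fibroblast markers 1 was higher, Lum (1.14), and 0 lower, with a median of 1.07. At an unadjusted p under 0.05, 5 were higher and 0 lower, and 7 of the 9 differences were positive and 2 negative. The list's mean level was 5.02 to 6.84 in KO and 4.55 to 5.76 in WT. Of 9 T, B and plasma cell markers 1 was lower, Nkg7 (-0.57), and 0 higher, with a median of -0.21. Jchain had the largest difference of this list, 2.03, and did not pass (limma adjusted p = 0.138). It read 7.29 and 5.27 in KO 2 and KO 4, against 1.94 to 3.50 in WT, with 2.40 and 2.83 in KO 1 and KO 3. The list's mean level was 1.93 to 3.42 in KO and 2.12 to 3.24 in WT. Zg16 is also made by goblet cells of the gut. Of 6 goblet cell markers 1 was lower, Spdef (-1.07), while Agr2 had the largest difference, 2.12, and did not pass (adjusted p = 0.0551). The list stood at 2.29 to 3.26 in KO and 2.81 to 3.02 in WT. The goblet mucin Muc2 was dim in both, at 1.79 to 2.26 in KO and 2.14 to 2.53 in WT. No marker of neutrophils (7), mast cells (6), endothelium (7), neural and Schwann cells (5) or adipocytes (5) passed in limma. At an unadjusted p under 0.05, 2 endothelial and 2 neural ones were lower and no other marker of these 5 lists differed. Their mean levels in KO and in WT ran from 1.74 to 3.39 and 1.93 to 2.43 (neutrophil), 1.99 to 2.62 and 2.11 to 2.33 (mast), 3.37 to 4.37 and 3.76 to 4.23 (endothelial), 1.81 to 2.07 and 1.95 to 2.36 (neural), and 2.77 to 5.33 and 2.89 to 3.45 (adipocyte). After a second quantile normalization 3 macrophage markers were higher, 1 ductal marker was higher and 2 lower, 1 endothelial marker was lower and no stellate cell marker passed. The part of cell composition in the differences of the 10 genes was not tested.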

How the data were processed

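Total RNA of mouse pancreas was measured on 8 arrays, as biotin-labelled cDNA of 100 ng of RNA (Affymetrix Plus WT kit), per the labels' protocols. The authors deposited log2 expression values as 1 table of 41345 rows, made with oligo, RMA and limma per the submitters' processing notes, which give no versions. RMA as a method scales arrays to each other, so a broad shift in RNA is not visible, yet the deposited KO columns were wider in spread than the WT columns, which is why 2 further rescalings were tried. The log base (not given in the sources used here) was taken as log2 from the range of the values. Signal over background, scan batches and the array's genome build are likewise unstated, so no batch could be tested and precision is limited by the number of arrays.

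Rows with 1 gene symbol in the platform annotation were kept (23521; 1814 had several symbols and 16010 none), and each of the 1082 genes with more than 1 row was represented by its brightest row. Genotype was tested on the 22180 genes with limma 3.58.1 (lmFit, eBayes) in R 4.3.3, genotype as the only factor, and p-values adjusted by Benjamini-Hochberg over the whole table (threshold 0.05). The steps were tested on simulated data. The 10 genes and the lists around them were chosen with earlier results of these data known. Genes named besides them were Lmna, Bhlha15 and Atp2c2, and, per list, up to 4 passing genes of smallest p in each direction, up to 2 per marker list, and for passing genes that moved at least 1 log2 unit the 3 closest profiles (predicted genes, receptor segments and small RNAs left out). Snap23, Stxbp2, Gcg, Sst, Agr2, Muc2, Retnlg, S100a8, S100a9, Cxcr2, Ly6g, Mpo, Elane, Cpa3, Jchain, Cidec and Fabp4 lie outside this rule. They were picked for their role or after their values were seen.

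The replicate numbers 1 to 4 appear in both genotypes. Across genes, the deviations from the group mean of arrays with equal numbers correlated at 0.26, 0.17, 0.11 and 0.14. As each was over 0.1, the numbers were read as pairing the arrays. Arrays with unequal numbers exceeded 0.1 as well in KO 2 with WT 4 (0.125) and KO 1 with WT 3 (0.106), so the pairing is only a reading of the data, and no label speaks of a common litter or day. Alternatives were leaving out each array, males only, a term for sex or replicate, array weights (statmod 1.5.0), robust eBayes with a trend, median centring, cyclic loess, a second quantile normalization, a mean level of at least 4, the mean of a gene's rows, and all rows. The block combined with the second quantile normalization, and leaving out KO 2 and KO 4 together, were added after seeing the data.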

Additional observations from a re-analysis of the deposited data

Results flagged for a closer look

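In 2 of the 20 gene-by-genotype groups of 4 arrays, 1 array stood apart from the other 3; chance flags about 1 in 20 such groups. For Rab26 in KO, KO 1 read 5.76 while KO 2 to 4 read 5.05 to 5.13, and its gap to the nearest was 0.878 of the group's range. Without KO 1 the Rab26 difference was -1.27 (adjusted p = 0.00379). For Stx3 in WT, WT 2 read 4.38 while WT 1, 3 and 4 read 4.03 to 4.09, a gap of 0.832 of the range. Without WT 2 the Stx3 difference was 0.46 (adjusted p = 0.0705); over its alternatives the adjusted p ran from 0.0518 to 0.995.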

How the results depend on the processing

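Over 21 alternatives, Rap1gap kept its direction and call, and Rab26 in each but the one without both KO 2 and KO 4. With those 2 arrays left out, the lower genes among the 10 numbered 1 (the calls of Rab26, Rab3d and Zg16 were lost, with 2 KO arrays remaining), and Vamp8, not called, changed sign to 0.0966. Over all genes 898 were then higher and 111 lower (1009 in all, 89% higher), with 4 other SNAREs, 5 Rab genes, 3 exocyst subunits and 1 RAP1 switch gene higher and 0 Rab genes lower. The call of Zg16 was also lost among males only, after a second quantile normalization, and after that with the replicate block, and the call of Rab3d among males only. The number of lower genes among the 10 was then 2 among males only, with 3 samples per genotype, and 4 with each array left out in turn. The number of higher ones was 0 throughout. Vamp2, not called, changed sign to -0.30 after a second quantile normalization, also with the replicate block, and to -0.27 after cyclic loess. The replicate block raised all passing genes to 5046, against 4792, and changed no call among the 10. It cut the lower Rab genes to 3, with the losses of Rab17, Rab27a and Rims3 given above and that of Mafa (adjusted p = 0.0563) from the marker lists.

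Over all genes, males only left 145 lower and 770 higher (915 in all). A second quantile normalization left 1228 higher (2370 in all), cyclic loess 1521 (2699), and the block with the second quantile normalization 1629 (2715). Median centring left 791 lower. A mean level of at least 4 left 291 lower (2834 in all) of the 6264 genes then tested. With each array left out, the lower genes numbered 459 to 2357, the higher 1781 to 3713 and all 2240 to 6070, lowest without KO 4 and highest without WT 1. Without KO 1 there were 936 lower genes, without KO 2 711, without KO 3 742, without WT 3 908 and without WT 4 913. The total was 3183 without KO 2 and 2904 without KO 3.

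Higher SNARE genes besides the members numbered 9 with sex as a term, 1 among males only, 4 after a second quantile normalization with or without the block, 5 after cyclic loess, 8 over all rows and 7 to 17 with an array left out (7 without KO 3 or KO 4, 8 without KO 1, WT 2 or WT 4, 9 without WT 3). Higher Rab genes numbered 4 among males only, 6 after a second quantile normalization, 11 with the block added, 10 after cyclic loess and 11 to 22 with an array left out (11 without KO 4). Lower Rab genes numbered 2 among males only, 3 with sex as a term, with median centring, with the level filter and over all rows, and 3 to 6 with an array left out (3 without any one KO array, WT 3 or WT 4). Higher exocyst subunits numbered 3 among males only and with the block and second quantile normalization, 8 with array weights and 4 to 7 with an array left out. Higher RAP1 switch genes numbered 3 among males only, 2 after a second quantile normalization or cyclic loess, 4 with the block added and 5 to 6 with an array left out. The causes were not tested. How dim a gene can be and still be measured is unknown, for lack of a signal over background.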
